A study of Mus musculus with 8 samples.

Results

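The histone genes of the mouse were examined for binding of the transcription factor ZFP281, a C2H2 zinc finger protein that binds G-rich DNA and is studied mostly in pluripotent stem cells. Members were the protein-coding genes whose RefSeq symbol begins with Hist and a digit, or with H1, H2, H3 or H4 followed by 1 of the signs c, b, a, f or - and a digit, which gave 39 of 21887 genes on chromosomes 1 to 19, X and Y. The table of assembly GRCm38 (the mm10 build) holds current symbols, so the rule took 10 linker H1, 16 H3 and 13 H4 genes and left out the H2A and H2B genes, whose current symbols (H2ac, H2bc) it does not match. Those and the other histone variants were added in a wider set of 106 genes.

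ZFP281 chromatin immunoprecipitation was sequenced in spheres from the MMTV-HER2/Neu mouse on the FvB background, a model in which the mouse mammary tumour virus promoter drives the HER2/Neu oncogene in the mammary gland, and every animal of both groups carries it. Primary tumour (PT) spheres came from animals older than 20 weeks with tumours, and early lesion (EL) spheres from animals of 14 to 18 weeks in which no tumour could be felt. All cells had spent 7 days in mammosphere medium on plates of very low adhesion. Each group had 3 ZFP281 libraries, described as biological replicates, and 1 input library that was not analysed here. The labels give the tissue as breast tumor for PT and mammary lung for EL, and the cells of both as breast cancer cells; the lists hold no expression level against which this could be checked, and a larger share of binding cells cannot be told apart from more binding per cell.

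The data of each library are a list of summits, each a position of 1 bp with the authors' score. The lists held 2897, 4030 and 6033 summits in PT replicates 1, 2 and 3 and 8588, 15770 and 7055 in EL replicates 1, 2 and 3. Read depth is unknown. A gene was counted as bound where a summit lay within 1 kb of either gene boundary, and a summit was described by its percentile among the scores of its own list, in which 100 is the top. Since a longer list reaches more genes, each comparison was repeated after cutting every list to its best 2897 summits, called lists of equal length.

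Histones are the proteins around which nuclear DNA is wrapped. H2A, H2B, H3 and H4 form the core of the nucleosome, and linker H1 binds the DNA between cores. Most histone proteins are made in S phase from short, intronless genes that lie together in clusters and whose transcripts end in a stem-loop in place of a poly(A) tail. A few single genes outside the clusters encode replacement variants, such as H3.3 and H1.0, which are made in all phases of the cell cycle or in resting cells. The 39 members had a median length of 502 bp, against 17169 bp for all protein-coding genes, so the 1 kb windows of both boundaries cover most of them whole.

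Binding in all 6 libraries was found at 5 members, 3 of them clustered H4 genes on chromosome 13 with summits at the promoter. The 250 bases before the start sites of H4c11, H4c12 and H4c9 are shown because all 18 of their summits lay in or beside them, with H4c17 as an H4 gene of the same cluster as H4c11 without a summit, H4c2 as an H4 gene bound at its other end, and H3f3a as the highest-ranking single gene. The H4c17 promoter shares 249 bases with that of H4c18, so its lack of a summit depends on how reads were placed. The sequences are those of RefSeq, build GRCm38.p6, written 5′ to 3′ on the strand of the gene. Capitals mark the G-rich letters GGGGAGGGG or their reverse complement, and the letters GGTCCG of the proximal H4 promoter. H4c11 is from chr13:21734784-21735033, plus strand, H4c12 from chr13:21750554-21750803, minus strand, H4c9 from chr13:22041363-22041612, minus strand, H4c17 from chr13:21811496-21811745, plus strand, H4c2 from chr13:23756687-23756936, plus strand, and H3f3a from chr1:180813606-180813855, minus strand.
H4c11: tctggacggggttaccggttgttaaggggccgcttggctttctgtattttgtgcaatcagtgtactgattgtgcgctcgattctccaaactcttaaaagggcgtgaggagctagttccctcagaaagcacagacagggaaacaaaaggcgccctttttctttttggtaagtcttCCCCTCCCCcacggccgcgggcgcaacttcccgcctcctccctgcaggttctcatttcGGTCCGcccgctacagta
H4c12: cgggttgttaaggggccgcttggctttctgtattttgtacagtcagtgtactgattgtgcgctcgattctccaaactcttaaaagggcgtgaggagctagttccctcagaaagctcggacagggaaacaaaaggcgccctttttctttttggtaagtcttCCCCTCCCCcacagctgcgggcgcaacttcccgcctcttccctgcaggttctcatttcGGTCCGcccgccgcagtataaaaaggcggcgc
H4c9: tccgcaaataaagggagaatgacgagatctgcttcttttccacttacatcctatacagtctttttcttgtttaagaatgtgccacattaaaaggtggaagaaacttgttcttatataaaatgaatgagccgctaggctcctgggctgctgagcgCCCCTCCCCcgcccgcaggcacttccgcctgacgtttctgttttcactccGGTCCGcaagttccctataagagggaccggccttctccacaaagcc
H4c17: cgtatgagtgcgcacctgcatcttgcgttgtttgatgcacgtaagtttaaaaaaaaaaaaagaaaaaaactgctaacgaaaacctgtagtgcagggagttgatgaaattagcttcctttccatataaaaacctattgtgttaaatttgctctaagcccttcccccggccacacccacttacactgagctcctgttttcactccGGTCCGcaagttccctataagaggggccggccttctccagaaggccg
H4c2: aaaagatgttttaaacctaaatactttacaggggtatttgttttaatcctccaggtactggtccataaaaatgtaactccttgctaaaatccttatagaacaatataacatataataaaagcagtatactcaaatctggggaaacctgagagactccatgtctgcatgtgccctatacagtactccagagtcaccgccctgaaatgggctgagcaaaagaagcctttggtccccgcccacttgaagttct
H3f3a: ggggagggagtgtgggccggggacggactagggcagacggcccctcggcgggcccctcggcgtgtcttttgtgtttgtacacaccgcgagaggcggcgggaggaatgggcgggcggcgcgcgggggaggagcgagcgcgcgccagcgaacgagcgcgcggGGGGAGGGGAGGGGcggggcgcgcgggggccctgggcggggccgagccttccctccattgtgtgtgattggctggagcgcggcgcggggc

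The number of bound histone genes overlapped between PT and EL spheres. The libraries bound 6, 5 and 6 of the 39 genes in PT replicates 1, 2 and 3, and 7, 11 and 6 in EL replicates 1, 2 and 3. The means were 5.67 ± 0.577 genes in PT and 8.0 ± 2.65 in EL (SD, n = 3 each), a difference of 2.33 genes, EL minus PT, which fell to 0.833 without EL replicate 2 and to 0.667 with summits of a score of at least 10. Both groups had a library with 6 bound genes. As a share of the 39 genes the libraries bound 15.4%, 12.8% and 15.4% in PT, where the share of all protein-coding genes was 5.76%, 7.53% and 11.1%. In EL they bound 17.9%, 28.2% and 15.4%, where the share of all genes was 13.5%, 20.8% and 11.7%. In lists of equal length 6, 5 and 5 members were bound in PT and 6, 5 and 5 in EL, a difference of 0, beside 5.76%, 5.75% and 6.21% of all genes in PT and 5.96%, 5.96% and 6.09% in EL.

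**Figure D1:**
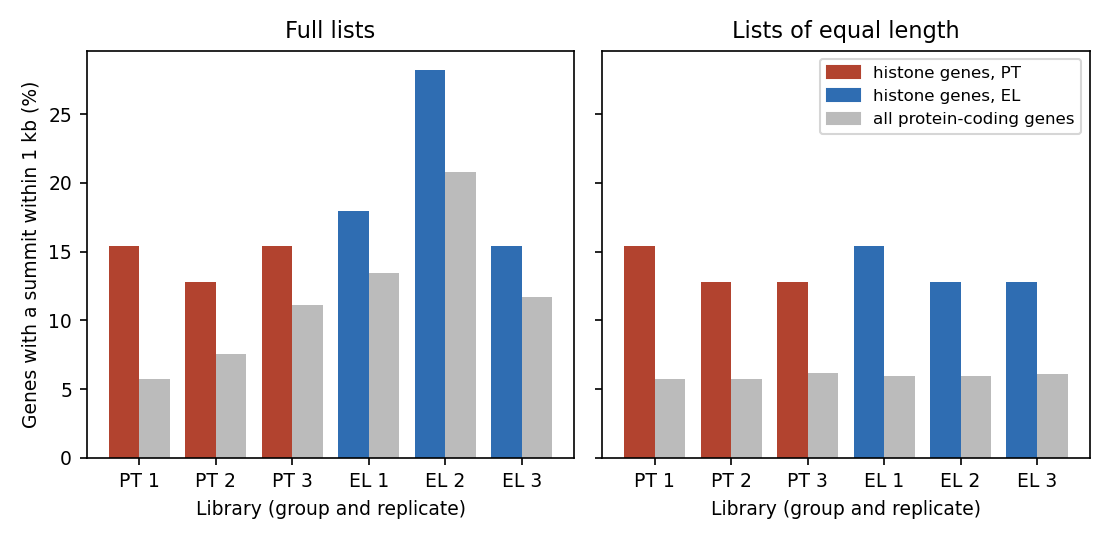
Percentage of genes with a summit within 1 kb of a boundary, by library, for the 39 histone genes (coloured bars, PT red and EL blue) and all 21887 protein-coding genes (grey bars), in full lists and in lists of equal length. The histone bars exceed the grey ones in each library and reach 28.2% in EL replicate 2, while in lists of equal length they are 12.8% or 15.4% in both groups.

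Of the 39 members, 5 were bound in all 6 libraries, namely H4c11, H4c12, H4c9, H3f3a and H1f0. This is 12.8% of the members, where 4.39% of all protein-coding genes were bound in all 6. These 5 were also bound in all 6 lists of equal length, where the share of all genes was 2.99%. At least 2 PT libraries bound 6 members (15.4%, all genes 7.46%), and at least 2 EL libraries bound 7 (17.9%, all genes 14.2%). In lists of equal length each of these counts was 5 members (12.8%), beside 5.72% of all genes for PT and 5.78% for EL. No member was bound in all 3 PT and no EL library, a class that held 0.0457% of all genes. None was bound in all 3 EL and no PT library either, a class that held 1.94% of all genes; without EL replicate 3 it held 1 member, H1f10. In lists of equal length both classes held 0 members, beside 0.338% of all genes for the first and 0.379% for the second. A summit in any library was found at 11 members (28.2%), against 23.1% of all genes. Of the 28 members without one, 22 had no summit within 5 kb of a boundary in any library. The same share was not counted over all genes, so the 22 cannot be read as particular to histone genes.

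**Figure D2:**
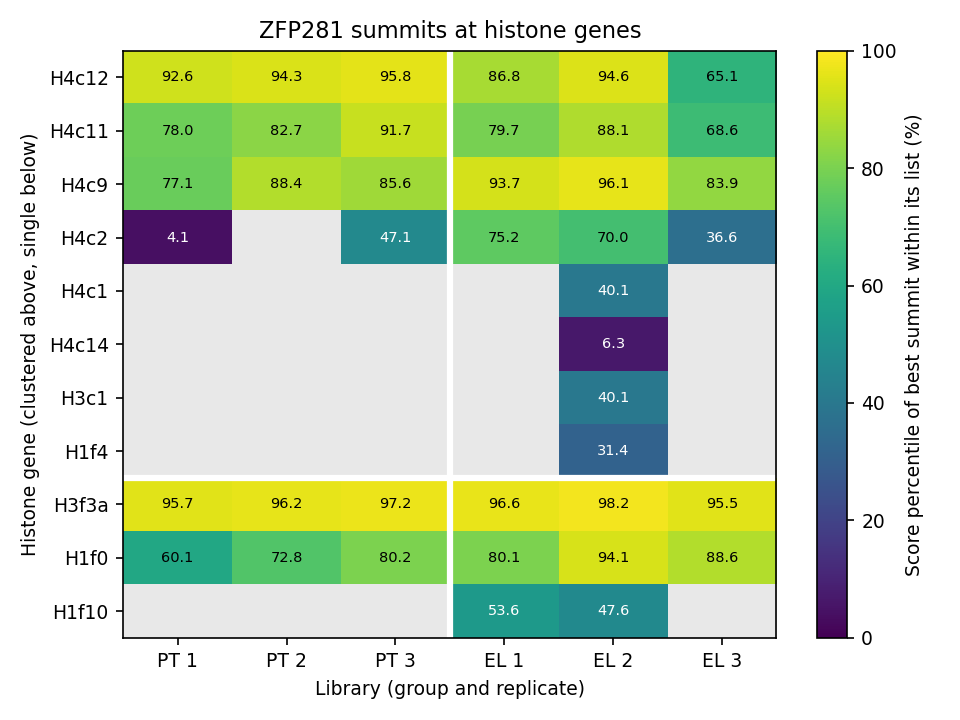
Score percentile of the best summit within 1 kb of each of the 11 histone genes bound in any library, by library, with the percentile written in the cell and grey cells for no summit. Of these, 5 genes are filled in all 6 columns, H4c2 in 5, and H4c1, H4c14, H3c1 and H1f4 in EL replicate 2 alone.

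By family, summits lay at 6 of 13 H4 genes, at 2 of 16 H3 genes and at 3 of 10 H1 genes, where 23.1% of all genes had one in any library. In all 6 libraries they lay at 3 H4, 1 H3 and 1 H1 gene, where the share of all genes was 4.39%. Of the families outside the symbol rule, 3 of 44 H2A genes and 0 of 20 H2B genes had a summit within 1 kb in any library. When only members were counted as neighbours, 29 members were clustered, with another member within 50 kb, and 10 were single. Of these 29 genes 3, 2 and 3 were bound in PT and 3, 7 and 3 in EL, and of the 10 single genes 3, 3 and 3 in PT and 4, 4 and 3 in EL. That count puts H4c9, H4f16 and H3f4 among the single genes, although H2A or H2B genes lie beside them. Counting all histone genes as neighbours, a choice made after seeing the data, gave 32 clustered and 7 single genes. Of the 32 clustered genes 4, 3 and 4 were bound in PT and 4, 8 and 4 in EL, and of the 7 single genes 2, 2 and 2 in PT and 3, 3 and 2 in EL. All genes were bound at 5.76%, 7.53% and 11.1% in PT and at 13.5%, 20.8% and 11.7% in EL. With lists cut to equal length the 32 clustered genes gave 4, 3 and 3 in PT and 4, 3 and 3 in EL, and the 7 single genes 2 in every library. The share of all genes in these lists was 5.76%, 5.75% and 6.21% in PT and 5.96%, 5.96% and 6.09% in EL. Within the clusters 3 of 13 H4 genes were bound in all 6 libraries, against 0 of 13 H3 and 0 of 6 H1 genes.

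H4c12 (Hist1h4k), 1 of the many genes that encode the same H4 protein, lies on chromosome 13 from 21750145 to 21750553. Its summits had percentiles of 92.6, 94.3 and 95.8 in PT replicates 1, 2 and 3 and of 86.8, 94.6 and 65.1 in EL replicates 1, 2 and 3. EL replicate 3 was low and the groups overlapped. The summits lay 81, 81 and 80 bp upstream of the start site in PT and 37, 66 and 57 bp upstream in EL, so the PT positions agreed within 1 bp and all lay farther upstream than those of EL. At H4c11, H4c9, H3f3a and H1f0 the positions of the groups overlapped. The shift at H4c12 was not tested, and positions were not compared over all genes. Its ranks in lists of equal length were 213, 228 and 252 in PT, where rank 1 is the top of 2897, and 1125, 848 and 2435 in EL. The ranks did not overlap.

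H4c11 (Hist1h4j), another H4 gene, lies in the same cluster, from 21735034 to 21735456. Its percentiles were 78.0, 82.7 and 91.7 in PT and 79.7, 88.1 and 68.6 in EL, which overlap. The summits lay 94 bp upstream, 13 bp downstream and 47 bp upstream of the start site in PT, and 87, 117 and 120 bp upstream in EL. Its equal-length ranks were 636, 694 and 505 in PT and 1730, 1870 and 2197 in EL, again with no overlap. The promoters of H4c11 and H4c12 share an identical stretch of 72 bases, and the part of reads that fit both in their values was not tested. Among the 27 members without a summit whose promoters were at hand, the pairs H4c17 and H4c18 (249 bases) and H3c14 and H3c15 (231 bases) shared longer stretches.

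H4c9 (Hist1h4i), an H4 gene beside H2A and H2B genes on chromosome 13 from 22040960 to 22041362, had percentiles of 77.1, 88.4 and 85.6 in PT and 93.7, 96.1 and 83.9 in EL. The summits lay 84, 75 and 112 bp upstream of the start site in PT and 107, 66 and 61 bp upstream in EL. Its equal-length ranks of 665, 468 and 868 in PT and 542, 609 and 1135 in EL overlapped (exact permutation p = 0.7, two-sided). The ranks of H4c9 thus mixed between the groups, where those of H4c11 and H4c12 did not; that contrast between the genes was not tested.

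H4c2 (Hist1h4b), an H4 gene of the chromosome 13 cluster between 23683473 and 23764412, was bound at the other end. Its summits lay 541 and 409 bp downstream of the start site in PT replicates 1 and 3 and 495, 484 and 452 bp downstream in EL, which is between 40 bp inside and 92 bp past the far end of the gene. The percentiles were 4.1 and 47.1 in PT, with no summit in PT replicate 2, and 75.2, 70.0 and 36.6 in EL. Cut to equal length, 1 list of each group held it. The remaining clustered members with a summit, H4c1 and H3c1 (which share 1 summit), H4c14 and H1f4, had one in EL replicate 2 alone, at percentiles of 6.3 to 40.1. That library has the longest list.

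**Figure D3:**
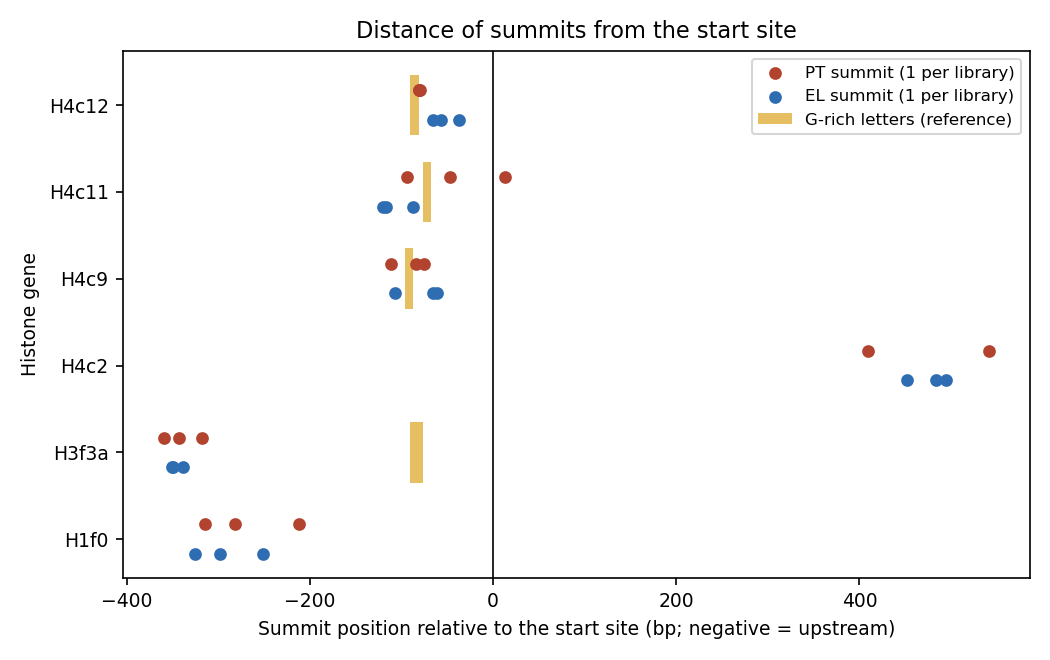
Position of each summit relative to the start site in bp (negative is upstream) for the 6 histone genes bound in at least 5 libraries, with 1 point per library (PT red and upper, EL blue and lower) and a yellow bar where the G-rich letters stand in the reference promoter. The H4c11, H4c12 and H4c9 points lie within 120 bp of the start site, those of H3f3a and H1f0 lie 212 to 359 bp upstream, and those of H4c2 lie 409 to 541 bp downstream.

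Of the 7 single variant genes, 2 were bound in every library. H3f3a encodes histone H3.3, which replaces H3 outside S phase, on chromosome 1 from 180802560 to 180813605. It had the highest percentile of the members in every library, with 95.7, 96.2 and 97.2 in PT and 96.6, 98.2 and 95.5 in EL, which overlap. The summits lay 343, 359 and 318 bp upstream of the start site in PT and 350, 339 and 351 bp upstream in EL, a spread of 41 bp over 6 libraries. Its equal-length ranks of 125, 155 and 168 in PT did not overlap the 294, 277 and 321 of EL.

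H3f3b, the other gene of the same H3.3 protein, on chromosome 11, had no summit within 1 kb of a boundary. However, the table's start site for it lies inside those boundaries, and summits lay 464 bp downstream of that site in PT replicate 3 and 253, 394 and 411 bp downstream in EL replicates 1, 2 and 3. Their percentiles were 48.7 in PT and 40.4, 70.0 and 11.1 in EL. With a distance of 1 kb to the start site in place of the boundary, H3f3b was bound in 1 PT and 3 EL libraries, and 5 members remained bound in all 6.

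H1f0 encodes the linker histone H1.0, which accumulates in resting and differentiated cells, on chromosome 15 from 79028212 to 79030504. Its percentiles were 60.1, 72.8 and 80.2 in PT and 80.1, 94.1 and 88.6 in EL. The summits lay 315, 282 and 212 bp upstream of the start site in PT and 251, 326 and 298 bp upstream in EL. The equal-length ranks were 1154, 1096 and 1193 in PT and 1709, 924 and 806 in EL, which overlap (exact permutation p = 1, two-sided). Without EL replicate 1 the remaining EL ranks lay above all PT ranks. A lack of overlap is easier to reach with 1 library fewer. The share of all genes was not counted without that library, so this cannot be read as particular to H1f0.

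H1f10, the gene of linker histone H1.10, was bound in EL replicates 1 and 2 at percentiles of 53.6 and 47.6, with summits inside the gene 812 and 857 bp downstream of its start site, and in no PT library. In lists of equal length H1f10 was bound in no library of either group. The other single genes, H3f3c, H1f8 (the oocyte linker histone) and H1f7 (a testis linker histone), had no summit within 1 kb. No other annotated gene of any kind lay within 1 kb of a summit at H4c11, H4c12, H4c9, H4c2, H3f3a, H1f0 or H1f10.

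Set against each other in lists of equal length, 3 members ranked higher in every PT than in every EL library and none the reverse. Over all genes 0.923% ranked higher in PT without overlap and 1.21% ranked higher in EL. Among the 655 genes present in all 6 lists of equal length, of which 5 were members, these shares were 11.6% higher in PT and 15.3% higher in EL. The percentiles within the lists of equal length averaged 92.0 ± 0.701 in PT and 48.9 ± 29.8 in EL for H4c12, a difference of -43.1 points, EL minus PT. For H4c11 they were 78.9 ± 3.39 in PT and 32.8 ± 8.31 in EL, a difference of -46.1, and for H3f3a 94.9 ± 0.744 in PT and 89.8 ± 0.763 in EL, a difference of -5.11 (SD, n = 3 each). The promoters of H4c11 and H4c12 share an identical stretch of 72 bases, so these genes cannot be counted as independent cases among the 3. Each of the 3 genes had an exact two-sided permutation p = 0.1, which is the lowest value that a comparison of 3 with 3 libraries can give, and adjusted p = 1 over all 21887 genes. No gene could pass 0.05 in this test, adjusted or not. A rank within a list depends on the other summits of that list, so a higher rank is not a higher amount of bound ZFP281.

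**Figure D4:**
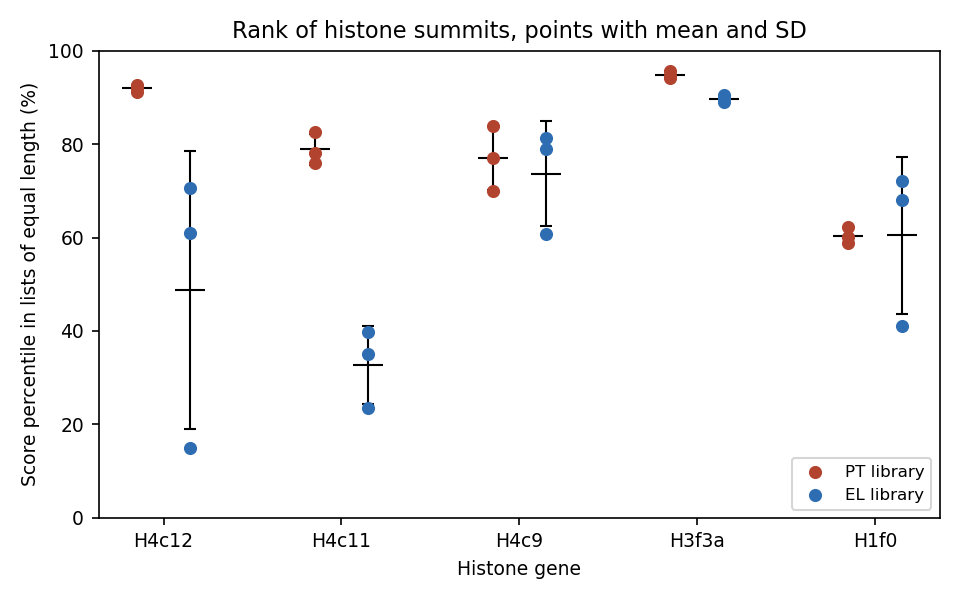
Score percentile within lists of equal length (vertical axis, 100 is the top) for the 5 histone genes bound in all libraries, with 1 point per library (PT red, EL blue) and the mean and SD of 3 libraries in black. The PT points of H4c12, H4c11 and H3f3a lie above all EL points, and those of H4c9 and H1f0 lie among them.

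The promoters of the H4 genes bound in all 6 libraries shared a G-rich run that the other H4 promoters lacked. Promoter sequence was at hand for 36 of the 39 members, and the 250 bases upstream of each start site were searched on both strands. The letters GGGGAGGGG stood in 3 of 3 promoters of H4 genes bound in all 6 libraries, in 0 of 9 other H4 promoters and in 0 of 27 promoters of members without a summit within 1 kb of a boundary. These 27 include H3f3b, which had summits 253 to 464 bp downstream of its start site in 1 PT and 3 EL libraries. The remaining promoter with these letters was that of H3f3a, which has them 2 times with an overlap. Of 21263 promoter entries of protein-coding genes 6.76% held them. No test was made on these counts. The H4 promoters bound in all 6 libraries also held more G and C, with a median of 54.4% (49.2% to 54.4%). The other H4 promoters had a median of 45.6% (40.0% to 61.6%), and H3f3a had 77.2%. All promoters had a median of 55.6%. The letters were not compared at like content of G and C, so the 2 traits cannot be told apart here. Both the 9 and the 27 include H4c17 and H4c18, whose promoters share 249 bases. A missing summit there depends on how reads were placed, which is not given.

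The run stood 90 to 82 bases upstream of the start site in H4c12, 76 to 68 in H4c11 and 96 to 88 in H4c9, on the reverse strand in each. The summits lay 5 to 49 bp from its centre at H4c12 (median 13), 15 to 85 bp at H4c11 (median 35) and 8 to 31 bp at H4c9 (median 18.5). At H3f3a they lay 232 to 273 bp from it. The H4c11 and H4c12 runs belong to promoters that are near copies, so they are not independent examples. H1f0, bound in all 6 libraries, had no such run in the 250 bases, of which 74.4% were G or C, and 5 of its 6 summits lay farther upstream than that window.

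Across all genes with a promoter entry, 17.1% of the 1336 genes with these letters were bound in all 6 libraries, against 3.44% of the 16156 genes without them. These genes were not matched for content of G and C either. The shorter letters GGGAGGG, which the longer ones contain, stood in 4 of 12 H4 promoters and in 22.5% of all. Among H4 promoters the letters GGTCCG were found in 3 of 3 promoters of genes bound in all 6 libraries and in 6 of 9 others, against 8.41% of all promoters, and so stood in H4 promoters with and without a summit. The CCAAT box was found in 3 of 12 H4, 11 of 14 H3 and 19 of 19 H2B promoters, against 35.4% of all. The octamer ATTTGCAT was found in 0 of 12 H4 and 7 of 19 H2B promoters, against 1.58% of all. TATAAA was found in 6 of 12 H4 promoters, against 11.6% of all.

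The wider set of 106 histone genes added 4 bound genes. H2az1, the gene of the variant H2A.Z that marks active promoters, was bound in all 6 libraries, at percentiles of 64.1, 68.5 and 90.9 in PT and 90.0, 94.9 and 80.6 in EL, with its best summits 717 to 748 bp downstream of the start site in PT and 668 to 737 bp downstream in EL. Further summits lay 249 bp upstream of the start site in PT replicate 1, 681 bp past the far end in PT replicate 3, and 144 and 177 bp upstream in EL replicates 1 and 3. The long noncoding RNA gene Gm43403 lies within 1 kb of the best summits. Its equal-length ranks of 1041, 1270 and 548 in PT and 857, 811 and 1370 in EL overlapped. H2ac20 and H2ac21 shared a region found in EL replicates 1 and 3, and Macroh2a1, the gene of a large H2A variant, had a summit in EL replicate 2. In lists of equal length H2ac20, H2ac21 and Macroh2a1 were bound in no library of either group. In all, 6 of the 106 genes (5.66%) were bound in every library, beside 4.39% of all genes. The other shares of the 106 genes in full lists lay below those of all genes. A summit in any library was found at 14.2%, against 23.1% of all genes. At least 2 PT libraries bound 6.6% (all genes 7.46%) and at least 2 EL libraries 9.43% (all genes 14.2%). Of the 67 genes outside the symbol rule, 5.97% had a summit in any library and 1.49% in all 6.

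Genes that serve the supply of histones were listed from textbook roles. Of 19 genes for transcription and RNA processing of replication histone genes, 2, 3 and 5 were bound in PT and 7, 8 and 4 in EL, beside 5.76%, 7.53% and 11.1% of all genes in PT and 13.5%, 20.8% and 11.7% in EL. At least 2 PT libraries bound 4 of them (21.1%) and at least 2 EL libraries bound 8 (42.1%), beside 7.46% of all genes for PT and 14.2% for EL. Ccne1, the cyclin E partner of Cdk2 that drives entry into S phase, was bound in all 6 libraries, at percentiles of 90.0 to 94.5 in PT and 96.0 to 98.1 in EL. Its equal-length ranks of 292, 409 and 336 in PT and 345, 503 and 134 in EL overlapped. Casp8ap2, whose protein FLASH acts in histone RNA processing, was bound in 2 PT and 3 EL libraries, and E2f1, an S phase transcription factor, in 1 PT and 3 EL libraries. Npat, a coactivator of replication histone genes, and Slbp, whose protein binds the stem-loop, had no summit within 1 kb in any library. In lists of equal length the counts were 2, 3 and 2 of 19 in PT and 2, 1 and 1 in EL, beside 5.76%, 5.75% and 6.21% of all genes in PT and 5.96%, 5.96% and 6.09% in EL.

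Of 32 histone chaperone and exchange genes, 4, 3 and 8 were bound in PT and 9, 13 and 9 in EL. Of all genes 5.76%, 7.53% and 11.1% were bound in PT and 13.5%, 20.8% and 11.7% in EL, so that share was also larger in each EL library. Bound in all 6 libraries were 3 of the 32 genes, beside 4.39% of all genes. They were Atrx, a remodeller that deposits H3.3 with Daxx, Rbbp4, a subunit of several histone-binding complexes, and Srcap, which exchanges H2A for H2A.Z. Daxx was bound in PT replicate 3 at a percentile of 49.3 and in EL at 79.2, 90.1 and 71.1. Within lists of equal length Daxx was bound in 0 PT and 3 EL libraries, and it was the sole gene of the 2 supply lists whose ranks did not overlap between the groups. Over all genes 0.923% ranked higher in PT and 1.21% higher in EL without overlap, so 1 gene among the 19 and 32 is near that share. The counts of chaperone and exchange genes there were 4, 2 and 3 in PT and 5, 3 and 4 in EL, beside 5.76%, 5.75% and 6.21% of all genes in PT and 5.96%, 5.96% and 6.09% in EL.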

How the data were processed

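ZFP281 summit lists of 3 PT and 3 EL libraries were used, as deposited, 1 list per library. The submitters' processing notes name Bowtie2 2.3.4.3, Picard and the build mm10; for the peak caller and any use of input, this is not given in the sources used here. Scores deposited by the authors were taken to be −log10 q-values, judging by their minima, which run from 1.30 to 1.55 across the lists. They ranked summits within a list, as a percentile or, in lists of equal length, as a rank with ties kept in file order.

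RefSeq genes of GRCm38 were linked to summits within 1 kb of a boundary, and neighbouring summits formed a region where 200 bp or less separated them. No genome sequence was used, so exons and introns are not given. Start sites and promoter sequences came from a RefSeq promoter table. Each protein-coding gene was tested by the exact permutation test of 3 against 3 libraries on its percentile in lists of equal length (0 where it had no summit), with Benjamini-Hochberg adjustment over all genes. Counts over the members got no p. Steps ran in Python 3.11.15 and were tested on simulated data.

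Named in full were single members, clustered members by number of libraries and percentile, and leading genes of the supply lists; H3f3b summits, Npat, Slbp and members without a summit were named after their values were seen. The members and lists were chosen with earlier results of these data known. The letters GGTCCG, the start-site rule and the count of neighbours with H2A and H2B genes were added after seeing the data. Any 2 lists shared 81 identical positions or fewer.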

Additional observations from a re-analysis of the deposited data

How the results depend on the processing

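Of the recomputed values, 99 stayed within 1.5 times the reported count or within the spread between replicates, and 4 moved further. Some of the 99 could not change, such as the mean differences under the replicate block described below. Counts within 1 group likewise could not change when a library of the other group was left out. Stricter scores (at least 5, at least 10), equal list lengths, windows of 500 bp and 5 kb, the wider set of histone genes and the start-site rule left 5 or 6 histone genes bound in all 6 libraries. With 5 kb to a boundary the difference between the groups was 4.67 genes per library, EL minus PT, and 11 genes were bound in at least 2 EL libraries, while with a score of at least 10 the difference was 0.667. All genes were not counted at these settings, so these shifts cannot be read as particular to histone genes. Leaving out each library in turn brought the difference to between 0.833 and 3.33 genes, the number bound in all 3 EL and no PT library to between 0 and 1, and the number ranking higher in EL without overlap to between 0 and 1, while the number ranking higher in PT stayed at 3. Each class is easier to enter with 1 library fewer. Taking libraries of the same number as pairs (the replicate block) cannot change the mean differences. These stay at 2.33 genes in full lists and 0 in lists of equal length. In every pair 3 genes ranked higher in PT, which the lack of overlap already fixes for these 3, and 0 ranked higher in EL. Whether the replicate numbers pair the samples is not known. Deviations of same-numbered libraries from their group means correlated at 0.00295, -0.00729 and -0.0224. Those of differently numbered libraries correlated at -0.0154 to 0.0227, so these values cannot decide it. Unknown read depth limits any statement that a gene lacks binding, and summits in near-identical histone genes depend on how reads were placed, which is not given.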

Other observations

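Summits in and within 1 kb of the histone clusters were counted for each library. The cluster on chromosome 13 from 21715711 to 21837530 has 18 histone genes, and each library placed 2 summits there, 1 at H4c11 and 1 at H4c12. The 16 histone genes between 23531044 and 23622558 had 2 summits in EL replicate 2 and none in any other library. The 10 histone genes of the chromosome 3 cluster had no summit in PT, and 1, 2 and 1 in EL replicates 1, 2 and 3. In the full lists these ranked 3778 in EL replicate 1 and 4182 in EL replicate 3. The percentiles in EL replicate 2 were 28.4 and 6.3. Cut to equal length, no list of either group held a summit of this cluster or of the one between 23531044 and 23622558. The contrast between the groups there was thus limited to the full lists. Inside the clusters lay 1 protein-coding gene that encodes no histone, and it had no summit.

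A further region, from 22049936 to 22050032 on chromosome 13, was found in 2 PT and 3 EL libraries, 6326 bp from H2bc11, with the tRNA gene n-TSgct5 within 1 kb. Its percentiles were 14.9 and 56.8 in PT replicates 2 and 3 and 66.4, 93.1 and 82.5 in EL. The nearest annotated tRNA genes lay 9324 bp from H4c9, 23969 bp from H4c11 and 39080 bp from H4c12.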
